A study of Rattus norvegicus with 30 samples.

Results

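The comparison described here set 5 livers of male Wistar/Han rat pups exposed to DE-71 at 50 mg/kg against 5 livers of male pups given 0 mg/kg. Both sets were taken on postnatal day 22 and are called PBDE pups and control pups. DE-71 is a technical mixture of polybrominated diphenyl ethers (PBDEs), compounds once added to foams and textiles as flame retardants. The 10 arrays were array numbers 1 to 5 (control) and 11 to 15 (PBDE) of 30 in the series, and the labels' array names place all 10 in 1 batch, the first of 2. The other 20 arrays were female pups of both doses and adult males of both doses at week 13. They entered the model for its shared estimate of the spread, and the adult males also entered 1 further comparison below.

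Every pup of both groups had a dam that was gavaged with corn oil at 5 ml/kg on 7 days per week from gestation day 6 to postnatal day 21, so control pups carried the vehicle although some labels call them untreated. The pups were dosed directly as well, through the day before their livers were taken, and the sources used here do not give the day on which that began. Exposure before birth, through milk and by direct dosing cannot be told apart. Each of the 5 pups of a group had its own dam, so a replicate is also a litter. There was 1 dose besides 0, and a piece of whole liver was used.

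DE-71 is known to activate receptors that sense foreign compounds in the liver. The aryl hydrocarbon receptor (AhR) switches on the Cyp1 family of cytochrome P450 enzymes, while the receptors CAR and PXR switch on Cyp2b, Cyp2c and Cyp3a enzymes, conjugating enzymes and export pumps. NRF2 is a transcription factor that raises enzymes of glutathione and quinone metabolism under oxidative or electrophilic stress. The livers of rats at weaning are also changing on their own, as fetal genes are switched off and adult enzymes come on with the move from milk to solid food.

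Expression was read on Affymetrix Rat Genome 230 2.0 arrays as log2 values, so a difference of 1 is a change of 2-fold, and the scale ran from 2.64 to 15.5 over all arrays. Each of 14217 genes was read from 1 probe set. At a false discovery rate of 0.01 in limma, 601 genes were higher and 463 lower in PBDE pups, together 7.48% of the genes tested (4.23% higher and 3.26% lower). The median change over all genes was 0.02. The 5 PBDE arrays lay wholly above or wholly below the 5 controls for 1693 genes (11.9%), and this was so for 925 of the 1064 genes that passed the test. A change of at least 2-fold was reached by 108 of the genes called higher (0.76% of all genes) and 65 of those called lower (0.457%), and one of at least 4-fold by 19 and 12 (0.134% and 0.0844%).

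The arrays were alike in their correlations and medians. Each array's mean correlation with the rest of its own group lay between 0.991 and 0.993, and the array medians lay between 5.73 and 5.76. The difference between the 3' and 5' control probe sets of Actb, which grows as RNA breaks down, was 3.54 ± 0.70 (SD, n = 5) in PBDE pups and 3.19 ± 0.40 in control pups (two-sided exact permutation p = 0.341). The same difference for Gapdh ran from 1.20 to 2.07 in control pups and from 1.46 to 2.96 in PBDE pups, so the groups overlapped (exact p = 0.198). PBDE pups 1 and 5 had the highest differences of all 10 arrays, at 2.96 and 2.57 for Gapdh and 4.36 and 4.15 for Actb. With 5 arrays per group, these tests cannot show that RNA quality was alike. Genes of the Y chromosome stood at the same level in both groups, with Eif2s3y at 9.67 ± 0.09 in control pups and 9.60 ± 0.08 in PBDE pups, which fits the male label of all 10. The 11 hepatocyte markers that could be read averaged between 14.1 and 14.3 on every array, and the 14 lymphocyte and 12 exocrine pancreas markers averaged between 4.84 and 5.21 on every array, below the array medians. The tissue of all 10 arrays thus fitted its label.

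**Figure D1:**
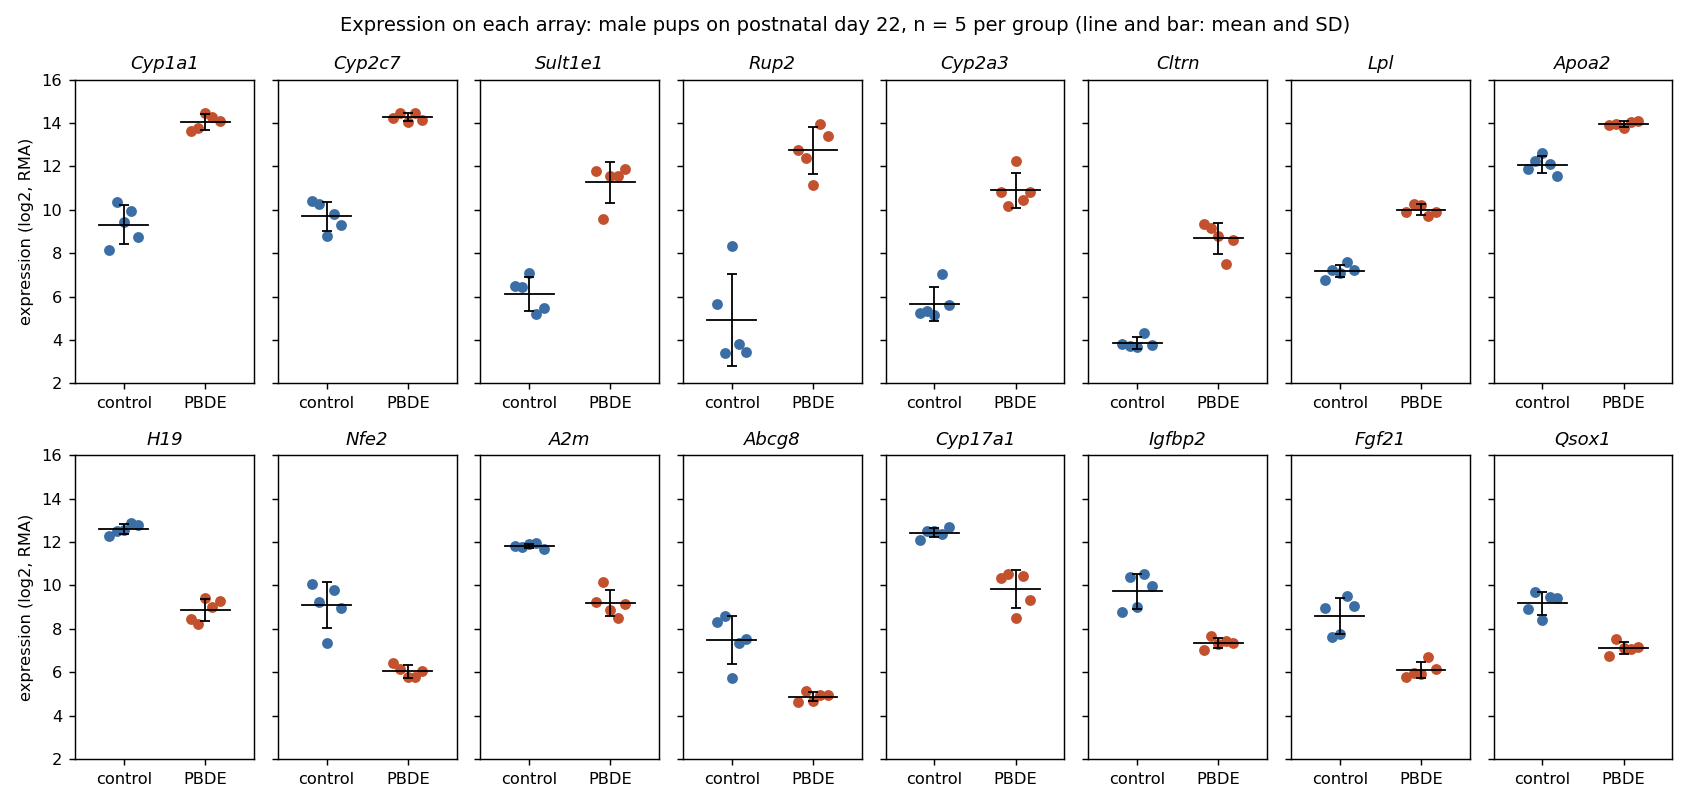
Log2 expression of 16 genes on each of the 10 arrays of male pups (points), with the group mean and SD (line and bar). In every panel the 5 PBDE arrays lie on one side of the 5 control arrays, because the 16 genes were drawn from those chosen for having no overlap. The control group is narrowest for A2m and widest for Rup2.

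The AhR genes were led by Cyp1a1, which oxidises planar aromatic compounds. It read 8.13, 10.34, 9.42, 9.96 and 8.74 in control pups 1 to 5 and 13.64, 13.76, 14.49, 14.29 and 14.11 in PBDE pups (change 4.74 ± 0.44, adjusted p = 1.33e-08) 1 to 5. The lowest PBDE pup stood 3.30 log2 units above the highest control, and the PBDE values were also closer to each other than the control values. Its neighbour in function Cyp1a2 was already high in controls (13.33, 13.65, 13.59, 13.26 and 13.20) and stood at 14.22, 14.49, 14.84, 14.72 and 14.57 in PBDE pups, with no overlap (change 1.16 ± 0.18 SE, adjusted p = 4.50e-05). Both P450s ended near the top of the scale, where a larger change might not be measured. Cyp1b1, the third enzyme of the family, differed among the PBDE pups. Controls read 5.33, 5.24, 5.27, 5.51 and 5.19, while the PBDE pups read 5.13, 5.83, 10.69, 8.78 and 7.64, so pups 1 and 2 were at or near the control level and pup 3 was far above it (change 2.31 ± 0.60, adjusted p = 0.0104, not past the threshold). The call for Cyp1b1 moved with the processing and with single pups. With all pups kept it passed under 5 alternatives, among them the filter on low values (adjusted p = 0.00689) and the 3' minus 5' covariate (0.00547). Without PBDE pup 1 the adjusted p was 5.61e-04, without pup 2 it was 0.00276 and without pup 3 it was 0.0377. Of the 10 genes of the AhR list, 4 were higher and none lower (40%, against 7.48% of all genes), with a median change of 1.01, and the other 2 were Nqo1 and Nfe2l2. Tiparp (-0.30 ± 0.11, adjusted p = 0.0774) and Aldh3a1 (0.91 ± 0.52, adjusted p = 0.301) did not pass. Nor did Ahrr (-0.05 ± 0.10), which stood near the bottom of the scale at 3.87 ± 0.19 in controls. The receptor's own gene Ahr read 6.96, 7.02, 6.15, 6.75 and 6.46 in controls and 7.90, 7.98, 7.90, 7.83 and 7.29 in PBDE pups. Those groups did not overlap, yet the change of 1.11 ± 0.35 did not pass the threshold (adjusted p = 0.0375). It passed when the 2 groups were fitted alone (adjusted p = 0.00162) and as the mean of its probe sets (0.68, adjusted p = 0.00298). The receptor's partner Arnt stood at 0.06 ± 0.11 and did not pass.

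Targets of CAR and PXR moved more widely. Of 28 read, 17 were higher and 1 lower (64.3%), with a median change of 0.83. The strongest was Cyp2c7, a P450 of retinoid and steroid oxidation, which went from 10.40, 10.27, 8.78, 9.79 and 9.29 to 14.24, 14.46, 14.04, 14.46 and 14.14 (change 4.57 ± 0.29, adjusted p = 7.45e-12). All 5 PBDE values sat near the top of the scale within a span of 0.42, while the control pups spanned 1.62. Cyp3a23-3a1, the main PXR-regulated P450 of rat liver, was 13.66 ± 0.19 in controls and 14.64 ± 0.04 in PBDE pups (change 0.98 ± 0.09, adjusted p = 1.06e-08), again close to the ceiling. Cyp3a9, of the same family, started low, at 4.69, 4.69, 4.96, 4.75 and 4.54, and read 7.45, 5.15, 5.70, 6.41 and 6.71 in PBDE pups, where pup 2 was only just above the controls and pup 1 far above them. Por, which passes electrons to every microsomal P450, read 10.14, 10.06, 9.66, 10.15 and 10.21 in controls and 10.92, 11.32, 11.33, 11.17 and 11.12 in PBDE pups, with control 3 the lowest of all. The mean over all its probe sets gave Por a smaller change of 0.79. Nr1i2, the gene of PXR itself, was the 1 member called lower. It read 9.32, 9.42, 9.25, 9.30 and 9.16 in controls against 8.83, 8.75, 8.60, 8.75 and 8.64 in PBDE pups, a small shift of -0.58 ± 0.09 without overlap. Nr1i3, the gene of CAR, stood at -0.59 ± 0.19 and did not pass (adjusted p = 0.0424, or 0.005 with the 2 groups fitted alone). Of the Cyp2b genes read, Cyp2b3 (-0.09 ± 0.19) and Cyp2b12 (-0.06 ± 0.08) did not pass. Cyp2b21 was called higher by 0.44 ± 0.11, from 4.10 ± 0.11 in controls, near the bottom of the scale. Cyp3a2 (0.22 ± 0.07, with controls at 14.56 ± 0.07), Cyp3a18 (-0.005 ± 0.22) and the carrier gene Slco1a4 (-0.42 ± 0.17) did not pass either. Cyp2c, Cyp2a, Ugt2b, Sult and Gst genes have near-identical relatives whose RNA may bind each other's probes, so a value given to 1 member of these families is uncertain as to which member it measured.

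Among P450s outside these lists, 7 of 32 were higher and 1 lower (25%), with a median of 0.12. The 7 included the largest P450 increase, that of Cyp2a3, which read 5.22, 5.33, 5.15, 7.02 and 5.62 in controls and 10.81, 10.17, 12.25, 10.43 and 10.81 in PBDE pups (change 5.23 ± 0.50, adjusted p = 2.90e-08). Control pup 4 was the highest control and PBDE pup 3 the highest of all. Cyp2c13 read 4.41, 4.46, 6.45, 4.17 and 4.58 in controls and 10.52, 7.66, 7.38, 10.90 and 9.61 in PBDE pups (change 4.40 ± 0.48, adjusted p = 2.19e-07). Its PBDE pups fell apart, with pups 2 and 3 far below the other 3, and control pup 3 came within 0.93 of PBDE pup 3. Cyp2c11, the main steroid hydroxylase of adult male liver, was 7.51, 6.84, 8.17, 6.98 and 5.98 in controls and 10.88, 9.58, 8.80, 10.19 and 10.04 in PBDE pups (change 2.80 ± 0.32, adjusted p = 6.05e-07), where pup 3 was again the lowest and stood 0.64 above control pup 3, the highest control. The number lower was 2 without PBDE pup 2, 4 or 5. The single decrease called was that of Cyp17a1, the steroid hydroxylase and lyase. It fell from 12.12, 12.52, 12.50, 12.39 and 12.69 to 10.32, 10.52, 8.51, 10.43 and 9.32 (change -2.62 ± 0.28, adjusted p = 1.83e-07), with PBDE pups 3 and 5 lowest, and the groups were 1.60 apart.

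NRF2 genes were higher in 11 of 24 cases and lower in none (45.8%), with a median change of 0.43. Nqo1, the quinone reductase that both AhR and NRF2 control, read 10.60, 10.75, 10.48, 10.83 and 10.04 in controls and 12.51, 11.97, 13.01, 12.56 and 12.15 in PBDE pups (change 1.90 ± 0.26, adjusted p = 9.55e-06). Control pup 5 was lowest and PBDE pup 3 highest, with 1.14 between the groups. Me1, the malic enzyme that supplies NADPH, went from 9.78, 9.79, 9.13, 9.45 and 8.98 to 10.88, 11.03, 11.16, 10.78 and 10.69 (change 1.49 ± 0.20, adjusted p = 9.12e-06). Gsta4, a glutathione transferase for lipid peroxidation products, had tight values in both groups: 11.59, 11.41, 11.58, 11.43 and 11.27 against 12.85, 12.60, 12.98, 12.55 and 12.76, a change of 1.29 ± 0.09 (adjusted p = 3.71e-11). Further increases were those of the microsomal epoxide hydrolase Ephx1 (1.31 ± 0.13), the oxidative stress-induced growth inhibitor Osgin1 (1.05 ± 0.17), glutathione reductase Gsr (0.94 ± 0.17) and Ugdh (0.74 ± 0.10), which makes the sugar donor of glucuronidation. Nfe2l2, the gene of NRF2, rose by 0.54 ± 0.11, with PBDE pup 2 the lowest of its group at 11.01 and the controls within 0.12 of each other. The gene of its inhibitor Keap1 had a change of 0.42 ± 0.09 and passed (adjusted p = 0.0014), but not as the mean of its probe sets (0.18, adjusted p = 0.287).

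The promoters of 3 of these NRF2-list genes are shown because the core letters of the AhR response element stand in them. The core searched was GCGTG on both strands, so that it reads CACGC on the other one, within 250 bases before to 50 bases after each gene's start in RefSeq's GRCr8 build, written along the gene's own strand with the core in capitals. In Nqo1 (chr19:52220218-52220517, minus strand) it begins 10 bases before the start. In Gsta4 (chr8:87947015-87947314, plus strand) it begins 210, 86 and 73 bases before the start. In Me1 (chr8:96540195-96540494, minus strand) it begins 241 and 83 bases before.
Nqo1: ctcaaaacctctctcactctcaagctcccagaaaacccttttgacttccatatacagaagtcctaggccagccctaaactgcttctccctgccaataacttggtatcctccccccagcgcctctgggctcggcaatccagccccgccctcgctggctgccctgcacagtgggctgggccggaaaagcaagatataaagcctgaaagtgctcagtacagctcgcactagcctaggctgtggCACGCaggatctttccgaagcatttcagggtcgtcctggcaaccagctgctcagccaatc
Gsta4: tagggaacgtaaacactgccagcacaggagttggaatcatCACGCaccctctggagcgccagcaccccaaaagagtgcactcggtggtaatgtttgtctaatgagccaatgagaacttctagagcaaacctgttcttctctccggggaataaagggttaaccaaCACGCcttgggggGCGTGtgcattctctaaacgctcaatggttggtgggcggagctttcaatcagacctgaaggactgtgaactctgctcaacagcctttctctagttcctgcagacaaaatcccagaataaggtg
Me1: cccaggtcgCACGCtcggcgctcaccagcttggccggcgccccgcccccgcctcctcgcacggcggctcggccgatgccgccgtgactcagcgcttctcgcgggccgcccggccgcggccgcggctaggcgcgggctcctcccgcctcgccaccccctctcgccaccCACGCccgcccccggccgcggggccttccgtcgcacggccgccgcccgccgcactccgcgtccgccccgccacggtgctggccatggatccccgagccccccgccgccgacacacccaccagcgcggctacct
The core is common: it was in 31.1% of 27457 promoters of that length, in 45.8% of the 11700 read genes with a promoter sequence, in 52.8% of the 506 such genes called higher and in 47.7% of the 386 called lower. It was in 8 of the 10 NRF2-list genes called higher that had a sequence and in 13 of all 22 with one, in 5 of 8 of the AhR list and 1 of its 3 called higher with a sequence, Cyp1a1 not being among them, and in 12 of 18 of the cholesterol list below, 6 of its 9 called lower among them. A match of these letters is a description of the sequence and shows no binding. The core TGACNNNGC of the NRF2 response element, searched the same way, was in 2 of those 10 called NRF2-list genes and in 12.2% of all promoters. The sterol element TCACNCCAC, searched the same way, was in 1.13% of all promoters and in none of the same 18 genes of the cholesterol list. The motifs can overlap each other and were counted separately.

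Conjugating enzymes rose in part. Of 20 glutathione transferases, 8 were higher and none lower (40%), with a median of 0.40. The largest change was that of Gstm2 (10.54 ± 0.53 in controls, 11.95 ± 0.28 in PBDE pups), for which control pup 1 came within 0.46 of the lowest PBDE pup. Gstt3 read 12.50, 12.67, 12.66, 12.11 and 12.34 and 13.62, 13.39, 13.35, 13.43 and 13.38, with no overlap. Of 27 glucuronosyltransferases and sulfotransferases, 9 were higher and 2 lower (40.7%), with a median of 0.12. Sult1e1, which inactivates oestrogens by sulfation, read 6.48, 6.43, 7.10, 5.20 and 5.47 in controls and 11.77, 9.56, 11.54, 11.54 and 11.89 in PBDE pups. PBDE pup 2 lay well below the other 4, and all 5 stood at least 2.46 above the highest control. Sult1b1, which sulfates phenols and thyroid hormones, went from 12.26, 11.66, 11.09, 11.02 and 11.18 to 13.49, 13.47, 13.51, 13.68 and 13.47 (change 2.08 ± 0.17, adjusted p = 2.15e-09), and the PBDE values spanned 0.21. Ugt2b1 rose by 1.28 ± 0.12 and ended at 14.07 ± 0.09. Sult1a1, a further phenol sulfotransferase, fell (-0.59 ± 0.11). Sult1c2 fell more (-1.34 ± 0.26, adjusted p = 8.04e-04), without overlap. Sult2a2, of the hydroxysteroid sulfotransferases, divided the PBDE pups: 11.14, 11.34, 7.65, 11.74 and 5.96 against controls at 7.55, 7.22, 8.16, 7.33 and 6.79. PBDE pups 1, 2 and 4 were far above the controls and pup 5 below them all, and the change of 2.15 ± 0.81 did not pass (adjusted p = 0.0892), although it did without pup 5 (0.00544).

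Carboxylesterases, hydrolases and carbonyl-reducing enzymes had 8 of 53 members higher and 3 lower (20.8%), with a median of 0.14. Ces2c, a carboxylesterase of the endoplasmic reticulum, read 9.27, 9.41, 8.92, 8.57 and 9.46 in controls and 12.08, 12.88, 12.37, 12.30 and 11.85 in PBDE pups (change 3.17 ± 0.21, adjusted p = 1.58e-11). Aldh1a1, a retinal dehydrogenase, read 12.11, 12.39, 12.13, 11.61 and 12.11 and 13.73, 13.57, 13.52, 13.51 and 13.54 (change 1.50 ± 0.16, adjusted p = 2.18e-07). The groups were 2.39 apart for Ces2c and 1.12 apart for Aldh1a1. The flavin monooxygenase Fmo1 moved the other way, from 11.50, 11.57, 11.79, 11.44 and 11.55 to 10.76, 10.24, 8.75, 10.16 and 10.16 (change -1.56 ± 0.25, adjusted p = 1.06e-04), with PBDE pup 3 lowest.

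Export pumps diverged. The conjugate exporters Abcc2, of the canalicular membrane, and Abcc3, of the blood-facing membrane, both rose. Abcc2 read 10.30, 10.76, 10.34, 9.92 and 10.81 in controls and 11.88, 11.99, 12.28, 12.09 and 12.33 in PBDE pups (change 1.69 ± 0.15, adjusted p = 3.80e-09). Abcc3 read 8.95, 9.43, 8.45, 8.88 and 9.08 in controls and 10.47, 10.55, 11.05, 10.53 and 10.64 in PBDE pups (change 1.69 ± 0.25, adjusted p = 2.77e-05). The groups were 1.08 and 1.04 apart. Abcg2, a canalicular pump for sulfates and urate, fell from 9.79, 9.44, 8.88, 8.94 and 9.32 to 7.70, 7.86, 7.63, 7.61 and 7.91 (change -1.53 ± 0.19, adjusted p = 3.17e-06), also without overlap. Of the 24 transporters of drugs and organic anions, 2 were higher and 3 lower (20.8%), with a median of 0.06. The bile acid importer Slc10a1 was among the 3 lower (-0.43 ± 0.07).

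Genes of cholesterol synthesis stood lower along most of the pathway. Of 22 read, 10 were lower and 1 higher (50%), with a median of -0.66 against 0.02 for all genes. Idi1, the isomerase of isoprenoid building blocks, read 12.88, 12.65, 11.83, 12.40 and 12.25 in controls and 10.92, 11.67, 11.06, 10.80 and 10.52 in PBDE pups (change -1.41 ± 0.26, adjusted p = 4.63e-04). Hsd17b7, which acts on late sterol intermediates, read 11.52, 11.81, 10.75, 11.33 and 11.14 and 9.76, 10.29, 9.90, 9.59 and 9.59 (change -1.48 ± 0.23, adjusted p = 5.63e-05). Lss, which closes the sterol rings, read 10.36, 10.33, 9.30, 10.14 and 9.90 and 8.84, 9.17, 8.82, 8.73 and 8.98 (change -1.10 ± 0.20, adjusted p = 4.19e-04). In all 3 the lowest control was pup 3, and no PBDE pup reached it. Scap, the escort of the transcription factor SREBP, fell by 0.90 ± 0.13, and Insig2, which holds Scap back in the endoplasmic reticulum, was the 1 member that rose (11.36, 11.60, 12.02, 11.18 and 11.06 in controls, 12.60, 12.75, 12.61, 12.85 and 12.23 in PBDE pups). The number of lower members depended on single pups: it was 4 without control pup 1 or 2, and 5 without PBDE pup 3, 4 or 5. Srebf2, the gene of the main regulator of this pathway, stood at -0.39 ± 0.11 and did not pass (adjusted p = 0.0183), although it did with the 3' minus 5' covariate (0.00138) and without control pup 3 (0.00869) or PBDE pup 2 (0.00999).

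**Figure D2:**
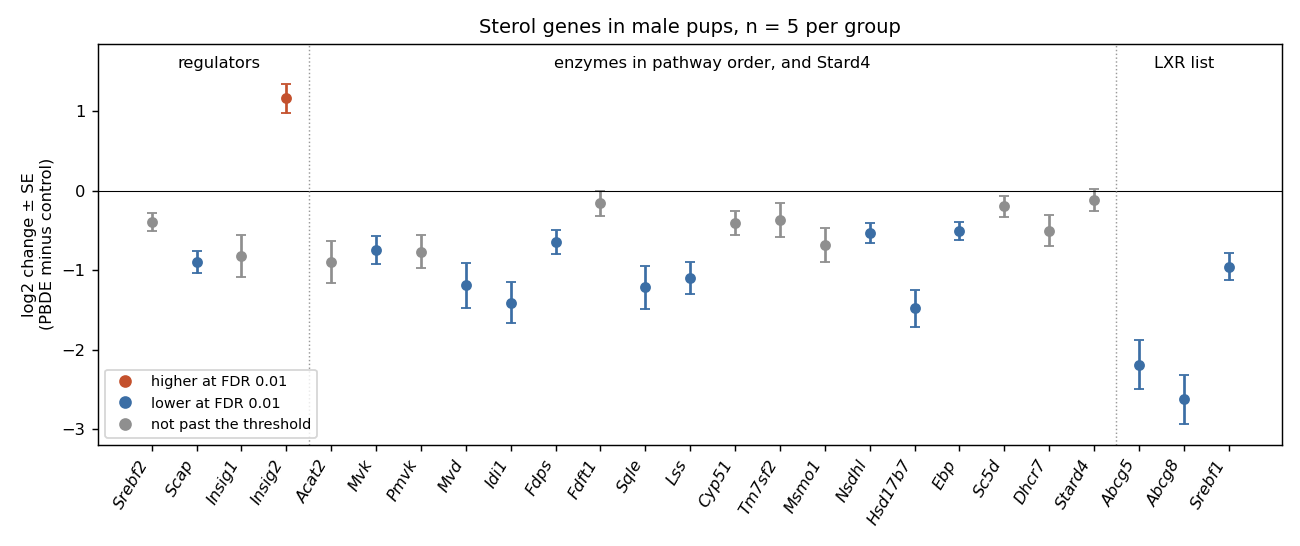
Log2 change (PBDE minus control male pups, n = 5 per group) with its SE for the regulators and enzymes of cholesterol synthesis, the enzymes in pathway order, and for Abcg5, Abcg8 and Srebf1. All but Insig2 lie below 0, 10 genes of the cholesterol list are lower at the false discovery rate of 0.01, and Abcg8 and Abcg5 lie lowest.

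Sterol export fell too. Abcg5 and Abcg8 form the pump that moves sterols into bile, and they are a head-to-head pair of genes. Abcg8 read 8.30, 8.57, 5.75, 7.34 and 7.52 in controls and 4.65, 5.16, 4.68, 4.95 and 4.93 in PBDE pups (change -2.63 ± 0.31, adjusted p = 8.62e-07). Abcg5 read 10.07, 10.16, 8.14, 9.50 and 9.11 in controls and 6.63, 7.77, 7.21, 7.51 and 6.91 in PBDE pups (change -2.19 ± 0.31, adjusted p = 1.72e-05). In both, control pup 3 was the lowest control, and the PBDE values of Abcg8 lay below the array medians, where a larger fall might not be measured. Srebf1, which drives fatty acid synthesis, fell by 0.95 ± 0.17. These 3 were the members called among 15 genes of sterol export and LXR, all 3 lower (20%), with a median of -0.19, and without control pup 4 there was 1 higher. Of 22 bile acid genes, 3 were higher and 4 lower (31.8%), with a median of 0.05. Cyp8b1, which sets the share of cholic acid, read 12.30, 12.10, 12.28, 10.95 and 11.46 in controls and 10.13, 9.49, 10.88, 9.95 and 10.87 in PBDE pups (change -1.55 ± 0.31, adjusted p = 0.0011). The nearest values of the 2 groups, control pup 4 and PBDE pup 3, were 0.07 apart. Slc27a5, which activates bile acids for conjugation, fell by 0.64 ± 0.09. Cyp7a1, the first enzyme of the pathway, read 12.56, 13.30, 12.13, 11.85 and 12.43 and 11.14, 10.65, 11.92, 11.31 and 11.22, where PBDE pup 3 overlapped the controls (change -1.20 ± 0.49, adjusted p = 0.123, not past the threshold).

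Lipid handling changed in both directions. Of 38 genes of fatty acid and triglyceride synthesis and storage, 4 were higher and 7 lower (28.9%), with a median of -0.12, and without control pup 3 the 7 became 4. Lpl, the lipase that frees fatty acids from lipoproteins and is low in normal adult liver, read 6.76, 7.23, 7.09, 7.57 and 7.24 in controls and 9.91, 10.28, 10.23, 9.72 and 9.91 in PBDE pups (change 2.83 ± 0.33, adjusted p = 6.45e-07). The 2 groups were 2.15 apart. Cidea, a lipid droplet protein, read 6.87, 7.20, 6.12, 7.32 and 6.77 and 8.26, 8.40, 8.75, 8.48 and 8.59. Fads2, the desaturase of polyunsaturated fatty acids, fell from 12.36, 12.26, 11.61, 12.20 and 12.21 to 10.58, 11.05, 9.85, 10.87 and 10.44 (change -1.57 ± 0.19, adjusted p = 1.21e-06). Outside the list, G0s2, which inhibits triglyceride breakdown, fell from 12.67, 12.54, 13.07, 12.92 and 12.73 to 11.55, 10.55, 10.10, 11.03 and 10.98. Angptl8, a secreted regulator of Lpl, fell from 10.52, 11.43, 10.46, 10.77 and 10.39 to 9.84, 8.59, 8.72, 9.04 and 9.40. The fatty acid carrier Fabp5 also fell (-1.51 ± 0.28). Apoa2, a main protein of high-density lipoprotein, rose from 11.89, 12.26, 12.60, 12.13 and 11.56 to 13.90, 13.95, 13.78, 14.05 and 14.09, and its PBDE values lay within 0.31 of each other. It was the 1 hepatocyte marker of 11 called higher, while 1 was called lower (18.2% called). Of the 11, 3 had changes above 0 and 8 below, with a median of -0.06. Leaving out 1 pup gave 0 or 1 lower.

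Of 38 PPARalpha targets and genes of fatty acid oxidation, 1 was higher and 1 lower (5.26%, against 7.48% of all genes), with a median of -0.02, and without control pup 3 the number lower was 2. The riser was Pdk4, which blocks pyruvate oxidation (10.19, 9.23, 10.29, 9.97 and 9.92 in controls, 10.78, 11.64, 11.01, 11.52 and 11.34 in PBDE pups). The other was Fgf21, a fasting hormone of the liver, which read 8.98, 7.63, 7.78, 9.49 and 9.03 and 5.77, 5.97, 5.93, 6.70 and 6.14 (change -2.48 ± 0.37, adjusted p = 3.51e-05). Controls 2 and 3 were the lowest of their group, and the highest PBDE pup stayed 0.92 below them. Subunits of mitochondrial oxidative phosphorylation showed 1 lower member of 64 (1.56%), with a median of -0.13. That count was 0 without control pup 1, 3, 4 or 5 or PBDE pup 1, 3 or 5, and 2 without control pup 2.

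Enzymes of amino acid breakdown and the urea cycle had 11 of 53 members lower and none higher (20.8%), with a median of -0.21. Agxt, which detoxifies glyoxylate, read 11.22, 11.14, 11.41, 11.65 and 11.51 in controls and 9.94, 10.57, 10.46, 10.47 and 10.19 in PBDE pups (change -1.06 ± 0.14, adjusted p = 4.69e-06). Prodh, which starts proline breakdown, fell by 0.89 ± 0.15, and Gatm, which makes the precursor of creatine, fell by 0.79 ± 0.11. As means of their probe sets the changes were smaller, at -0.42 for Prodh and -0.39 for Gatm. The other probe set of each gene did not fall. Of 29 genes of glucose metabolism, 6 were lower and 1 higher (24.1%), with a median of -0.26. Fbp1, of gluconeogenesis, fell by 0.52 ± 0.09, and the glycogen synthase Gys2 fell by 0.53 ± 0.11. The single member called higher, the glucose carrier Slc2a1, had a change of 0.64 ± 0.13. Without control pup 2 the number higher was 2.

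Genes of the amino acid starvation response, which ATF4 drives, were lower in 9 of 31 cases and higher in none (29%), with a median of -0.19. The number was 5 when the 2 compared groups were fitted alone. Besides Fgf21, the stress protein Nupr1 fell from 10.53, 10.55, 10.47, 11.15 and 10.90 to 9.34, 8.82, 9.77, 8.94 and 9.07 (change -1.53 ± 0.20, adjusted p = 6.62e-06). Psph, of serine synthesis, read 8.95, 8.75, 8.76, 9.15 and 8.77 in controls and 8.12, 8.18, 7.96, 7.93 and 7.89 in PBDE pups, and Cars1, the cysteine tRNA synthetase, fell by 0.63 ± 0.09. No PBDE pup reached a control in any of these 3. Of 61 genes of protein folding and transport in the endoplasmic reticulum, 5 were higher and 1 lower (9.84%), with a median of 0.12. The 5 became 3 without control pup 1 or 3 or PBDE pup 3 or 5, and the 1 lower became 2 without control pup 3. Xbp1, a regulator of that compartment, rose by 0.66 ± 0.14.

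Regulators induced by stress and hormones included 5 lower members of 36 and no higher one (13.9%), with a median of -0.09. Sgk1, a kinase induced by glucocorticoids, read 10.60, 9.28, 10.55, 10.94 and 10.23 in controls and 8.61, 8.17, 8.25, 8.82 and 8.47 in PBDE pups (change -1.85 ± 0.32, adjusted p = 2.08e-04). Control pup 2 was the lowest control and still above all PBDE pups. Tsc22d3, which encodes the glucocorticoid-induced leucine zipper, read 10.43, 10.22, 10.31, 10.47 and 10.36 and 9.78, 9.74, 9.26, 9.59 and 9.68, and Fkbp5, a co-chaperone of the glucocorticoid receptor, fell by 0.85 ± 0.13. Klf10, a zinc-finger factor of early responses, fell by 1.19 ± 0.23. Rasd1, a Ras protein first found through dexamethasone and not a member of the list, read 7.77, 8.34, 8.16, 8.30 and 8.67 and 6.73, 6.36, 6.82, 7.01 and 6.91. The immediate early gene Egr1 overlapped between the groups and did not pass (-0.94 ± 0.41, adjusted p = 0.151). None of 22 clock genes passed the threshold.

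**Figure D3:**
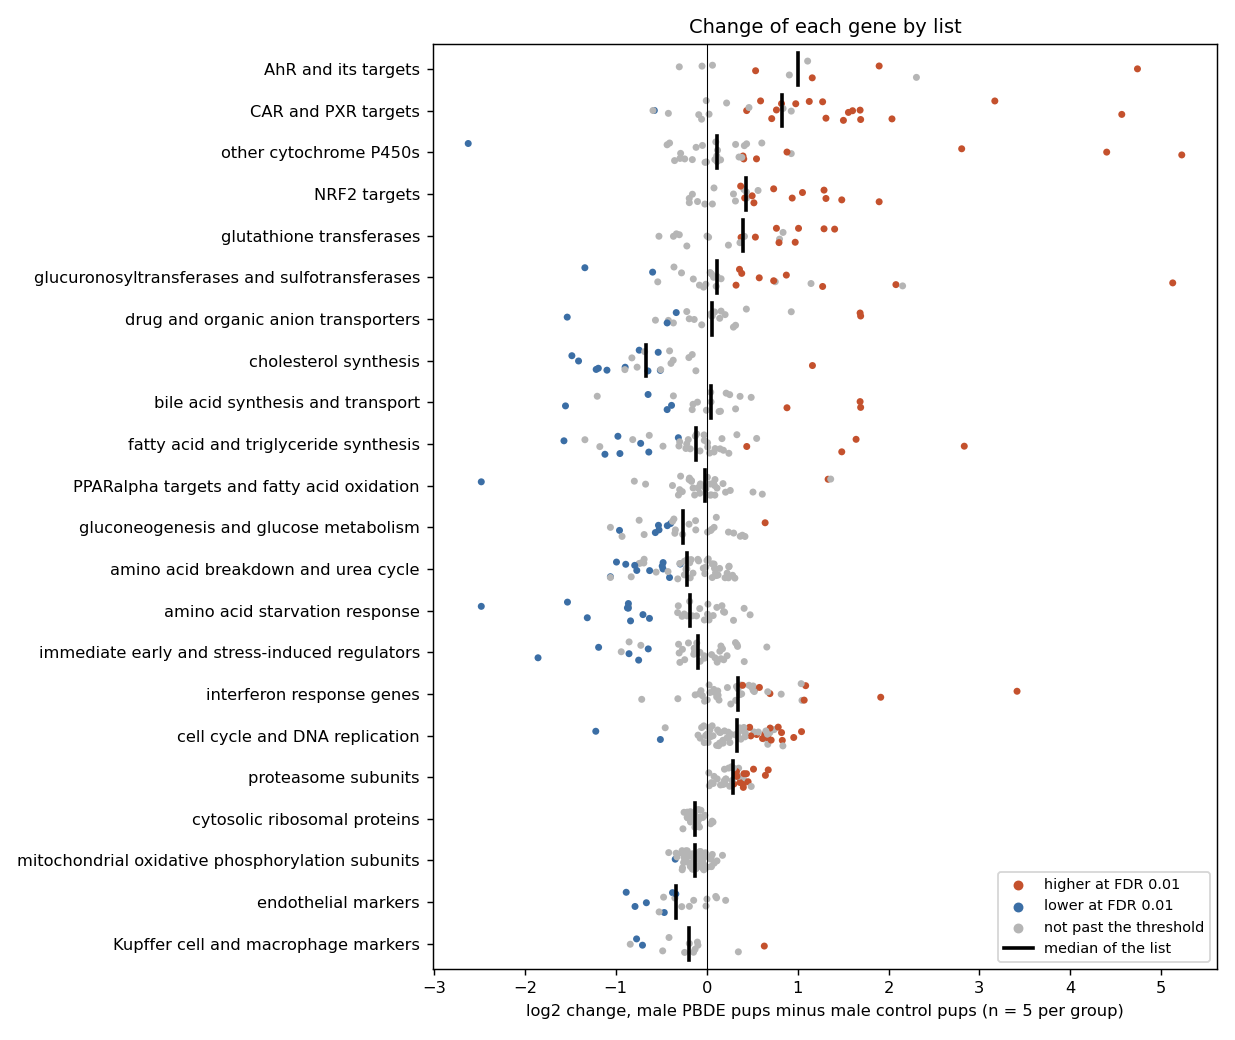
Log2 change (PBDE minus control male pups, n = 5 per group) of every read member of 22 gene lists, coloured by whether it was higher or lower at the false discovery rate of 0.01, with the list's median as a bar. The CAR and PXR list has a median of 0.83, the cholesterol list one of -0.66, and all 36 proteasome subunits lie above 0.

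H19 gave the largest fall of all genes. This imprinted non-coding RNA is abundant in fetal liver and is silenced after birth. Control pups read 12.28, 12.54, 12.56, 12.90 and 12.77 and PBDE pups 8.46, 8.20, 9.42, 9.0 and 9.28 (change -3.74 ± 0.23, adjusted p = 3.53e-12), so control pups were still high on day 22 and the groups were 2.86 apart. Igf2, its imprinted neighbour, was low in both groups (6.32 ± 0.30 and 6.27 ± 0.25) and did not pass. Of the 33 fetal, neonatal and imprinted genes read, 3 were lower and 1 higher (12.1%), with a median of -0.08. The growth factor adaptor Grb10 fell from 7.41, 7.35, 7.22, 7.11 and 7.56 to 6.00, 6.50, 6.78, 6.21 and 6.52, a change of -0.93 or, as the mean of its probe sets, -0.33. The imprinted amino acid carrier Slc38a4 fell by 0.70 ± 0.10. Zhx2, a repressor of fetal liver genes, was the riser (5.99, 6.18, 5.80, 5.90 and 5.69 in controls, 6.60, 6.71, 6.39, 6.53 and 6.80 in PBDE pups). Afp, the classic fetal serum protein, had a change of -0.32 ± 0.43 and did not pass.

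Igfbp2, a carrier of insulin-like growth factors, read 8.76, 10.39, 9.03, 10.52 and 9.99 in controls and 7.04, 7.68, 7.32, 7.43 and 7.34 in PBDE pups (change -2.37 ± 0.31, adjusted p = 5.67e-06), and it was the 1 member called among 26 genes of the growth hormone and IGF axis (3.85%). Serpina7, the thyroxine-binding globulin, fell from 11.02, 10.71, 11.60, 11.90 and 11.60 to 9.50, 9.41, 8.92, 8.55 and 9.56 (change -2.18 ± 0.39, adjusted p = 3.15e-04). Of 23 thyroid genes, 1 was higher and 2 lower (13%), with a median of -0.13. The 2 lower became 1 without control pup 2, 3 or 5 or PBDE pup 3 or 4. The protease inhibitors A2m and Mug1 fell as well. A2m spanned 0.26 in controls (11.81, 11.80, 11.90, 11.95 and 11.69) and 1.64 in PBDE pups (9.22, 10.15, 8.87, 8.51 and 9.17), and the groups did not meet. For Mug1, control pup 1 at 7.38 was close to PBDE pup 2 at 7.01 (change -1.90 ± 0.40, adjusted p = 0.002). Of 31 acute phase proteins, 3 were lower and 1 higher (12.9%), with a median of -0.06. The 1 higher was lost without control pup 2, 4 or 5 or PBDE pup 3 or 4.

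Genes that differ between the sexes in adult liver were higher in 9 of 23 cases and lower in none (39.1%), with a median of 0.72. They were led by Rup2, a secreted urinary protein of the rat. Control pups read 5.66, 3.38, 8.34, 3.80 and 3.42 and PBDE pups 12.77, 12.39, 11.16, 13.97 and 13.41 (change 7.81 ± 0.79, adjusted p = 6.24e-08). Control pups 2, 4 and 5 were near the bottom of the scale and control pup 3 stood apart from them, while every PBDE pup was above 11. The mean of its probe sets gave Rup2 a change of 5.41 in place of 7.81. The list holds male-biased and female-biased genes alike, and it shares Cyp2c7, Cyp2c11, Cyp2c13 and Sult1e1 with the groups above.

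Interferon response genes were higher in 8 of 41 cases and lower in none (19.5%), with a median of 0.34. Cxcl9, a T-cell chemokine, read 5.84, 5.85, 6.25, 5.51 and 5.64 in controls and 9.25, 8.30, 10.23, 8.74 and 9.63 in PBDE pups (change 3.41 ± 0.34, adjusted p = 5.76e-08), with 2.05 between the groups. Ifi44l read 6.44, 6.10, 5.04, 6.69 and 5.91 and 7.77, 8.05, 7.98, 7.44 and 8.52, also without overlap. The chemokine Cxcl10 rose by 1.09 ± 0.22 and Tapbp, which loads peptides on MHC class I, by 0.58 ± 0.09. Leaving out 1 pup gave between 6 and 13 higher members, with 13 without control pup 1. The 14 lymphocyte markers averaged between 4.90 and 5.16 on control arrays and between 4.91 and 5.14 on PBDE arrays, with 0 of 14 called, and the T-cell markers Cd3g and Cd8a stood at 4.59 ± 0.15 and 4.53 ± 0.19 in controls and 4.71 ± 0.17 and 4.61 ± 0.11 in PBDE pups, below the array medians. Cxcl13, a B-cell chemokine, fell from 7.69, 7.56, 8.29, 9.12 and 8.33 to 6.31, 6.90, 5.61, 5.99 and 6.57.

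Proteasome subunits shifted by small amounts in 1 direction. All 36 had a change above 0, with a median of 0.29, and 12 passed the test (33.3%). Psmd2, of the regulatory particle, read 10.58, 10.63, 10.53, 10.47 and 10.55 in controls and 11.07, 11.04, 11.04, 11.20 and 10.98 in PBDE pups (change 0.51 ± 0.07, adjusted p = 3.95e-06). Psme4, an activator, read 10.34, 10.36, 10.13, 10.06 and 10.26 in controls and 10.98, 10.92, 10.83, 11.01 and 10.78 in PBDE pups, a change of 0.68 or, as the mean of its probe sets, 0.43. The count of 12 was not steady: it was 4 when the 2 groups were fitted alone, 7 without control pup 2, 3 or 5 and 6 without PBDE pup 4. None of 41 cytosolic ribosomal protein genes passed, and their median was -0.13. Cell cycle genes were higher in 13 of 68 cases and lower in 2 (22.1%), with a median of 0.33. Ccnb1, the mitotic cyclin, read 5.31, 5.84, 5.65, 5.42 and 5.52 in controls and 6.75, 6.40, 6.30, 6.41 and 6.67 in PBDE pups (change 0.96 ± 0.19, adjusted p = 0.0011), and Cdca3 rose by 1.04 ± 0.21. The largest change of the list was a fall, that of the cyclin gene Ccnd1 (-1.22 ± 0.30, adjusted p = 0.0065), without overlap. The 2 lower became 1 without control pup 2, 4 or 5 or PBDE pup 2, 3 or 5. The 13 became 6 with no shrinkage of the spread, 7 with the 3' minus 5' covariate, and between 6 and 8 without any 1 of the 5 control pups or of PBDE pups 1, 2, 3 and 5. Of 20 genes of the p53 and DNA damage response, 3 were higher (15%). Gadd45b, a partner of CAR in liver growth as well as a damage gene, read 6.31, 6.70, 6.36, 6.74 and 6.79 and 8.13, 8.53, 9.30, 8.75 and 8.37 (change 2.04 ± 0.20, adjusted p = 5.44e-08). The ubiquitin ligase Mdm2 rose by 0.69 ± 0.12 and the p53 target Perp by 0.74 ± 0.10.

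Markers of some of the liver's other cell types moved beside these genes. Endothelial markers were lower in 6 of 17 cases and higher in none (35.3%), with a median of -0.34, and the mean of the 17 lay between 8.29 and 8.48 on control arrays and between 7.92 and 8.20 on PBDE arrays, with no overlap. Fcgr2b, of sinusoidal endothelium, read 10.73, 10.44, 10.79, 10.69 and 10.60 in controls and 9.90, 9.49, 9.89, 9.88 and 9.67 in PBDE pups (change -0.89 ± 0.12, adjusted p = 5.08e-06), and the scavenger receptor Stab2 fell by 0.79 ± 0.13. Pecam1, of all endothelium, stood at -0.14 ± 0.08 and did not pass. In a piece of whole liver, fewer cells of a type and less RNA per cell cannot be told apart. Of 13 Kupffer cell and macrophage markers, 2 were lower and 1 higher (23.1%), with a median of -0.19, and their mean lay between 9.01 and 9.23 on control arrays and between 8.79 and 8.96 on PBDE arrays. The 2 lower became 1 without any control pup but 3 or any PBDE pup but 1, and the 1 higher was lost without control pup 4 or 5 or PBDE pup 4. Clec4f, the defining marker of Kupffer cells, had a change of -0.41 ± 0.14 and did not pass. Of 28 stellate cell and matrix genes, 2 were lower (7.14%, against 7.48% of all genes), and without any 1 pup the number was 0 or 1. Among 10 cholangiocyte markers Epcam alone was called (1.07 ± 0.18), while Krt7 and Krt19 stood at 0.12 ± 0.08 and -0.28 ± 0.17. The part of these shifts in the other results was not tested.

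Erythroid and haem genes showed 2 higher and 2 lower of 37 (10.8%), and 1 of them had the second-largest fall of all genes. Nfe2, a transcription factor of blood-forming cells, read 10.08, 9.24, 7.35, 9.79 and 8.96 in controls and 6.44, 6.15, 5.76, 5.78 and 6.04 in PBDE pups (change -3.05 ± 0.41, adjusted p = 8.22e-06). Control pup 3 was the lowest control and still above every PBDE pup. The list's mean lay between 8.41 and 8.63 on control arrays and between 8.43 and 8.61 on PBDE arrays, so the groups overlapped. The 2 lower became 1 without control pup 2 or 5 or PBDE pup 2 or 5. The haem-pathway genes Blvrb and Fech rose by 0.67 ± 0.08 and 0.50 ± 0.09.

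Beyond the lists, several strong responders belonged to no group described so far. Zdhhc2, an enzyme that attaches palmitate to proteins, had an adjusted p of 5.76e-14. It read 5.97, 5.69, 5.85, 5.90 and 5.82 in controls and 8.78, 9.15, 9.09, 8.99 and 8.67 in PBDE pups, so the controls spanned 0.29, the PBDE pups 0.48, and the groups were 2.69 apart. Ttc39a stood near the bottom of the scale in every control (3.96, 4.12, 3.92, 3.98 and 3.90) and at 7.28, 6.09, 7.67, 6.95 and 7.62 in PBDE pups, with pup 2 lowest. Cltrn, a partner of amino acid transporters, was likewise near the floor in controls (3.79, 3.73, 3.66, 4.34 and 3.75) and read 9.35, 9.14, 8.80, 7.49 and 8.60 in PBDE pups (change 4.82 ± 0.27, adjusted p = 4.67e-13), with pup 4 lowest. Egln3, a prolyl hydroxylase that marks hypoxia-inducible factor for removal, read 4.58, 4.22, 4.27, 4.21 and 3.97 and 6.47, 5.90, 6.91, 6.36 and 6.33. Snx10, a sorting nexin of endosomes, read 5.46, 5.23, 4.91, 5.49 and 6.11 and 8.61, 8.42, 9.54, 8.59 and 8.71, with PBDE pup 3 apart from the other 4. Retreg1, a receptor for turnover of the endoplasmic reticulum, rose by 2.12 ± 0.24, and by 1.30 as the mean of its probe sets. The glutamate receptor subunit Grin2c (1.82 ± 0.19), the kinase Grk5 (1.71 ± 0.19), the annexin Anxa7 (1.68 ± 0.15) and the serine protease Prss8 (1.64 ± 0.25) also rose, each without overlap. St6galnac2, a sialyltransferase, resembled Cyp1b1 in its spread: PBDE pups read 5.97, 5.79, 9.22, 8.45 and 7.90 and controls 5.35, 5.18, 5.26, 5.63 and 5.40. Its pups 1 and 2 stood little above the controls, and its call was lost when the compared groups were fitted alone (adjusted p = 0.0303). The mean of its probe sets gave a change of 1.11 in place of 2.10.

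Decreases outside the lists included both a regulatory subunit and a methylating enzyme of protein phosphatase 2A. The subunit gene Ppp2r2b read 6.70, 7.57, 7.32, 8.59 and 8.48 in controls and 5.59, 5.69, 5.25, 4.98 and 5.80 in PBDE pups (change -2.27 ± 0.31, adjusted p = 1.01e-05). The methyltransferase gene Lcmt1 read 10.84, 11.05, 11.30, 11.52 and 11.17 in controls and 10.11, 9.72, 9.41, 9.19 and 9.64 in PBDE pups (change -1.56 ± 0.19, adjusted p = 1.66e-06). No PBDE pup reached a control in either. Qsox1, which forms disulfide bonds in secreted proteins, fell from 8.90, 9.69, 8.41, 9.45 and 9.41 to 6.74, 7.53, 7.14, 7.06 and 7.14 (change -2.05 ± 0.18, adjusted p = 7.75e-09). Ifrd1, a transcriptional co-regulator, fell from 10.32, 10.13, 10.18, 10.83 and 10.40 to 8.57, 8.18, 9.21, 8.36 and 8.69 (change -1.77 ± 0.18, adjusted p = 6.24e-08). The groups were 0.88 apart for Qsox1 and 0.93 for Ifrd1. Qpct, which caps peptides with pyroglutamate, fell by 2.19 ± 0.23 to 5.23 ± 0.21, below the array medians, and Rprm and Adam11 fell too (-1.74 ± 0.34 and -1.65 ± 0.16). The 30 largest increases with no overlap had changes of 1.64 or more and the next gene stood at 1.62. The 30 largest decreases ended at -1.48 and the next gene stood at -1.41.

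The design also asked whether the change in pups differed from that in adult males at week 13, whose 2 groups lay together in the second array batch. The adults had the same dose, given on 5 days per week after weaning. The difference between the 2 changes passed a false discovery rate of 0.05 for 352 of all genes (2.48%, with 1.35% higher and 1.13% lower in pups than in adults) and for 231 of the 1064 genes called in pups. The 352 became 230 without control pup 5. Of the 30 largest increases in pups it passed for 16, and of the 30 largest decreases for 20. These 60 genes were chosen for their size in pups, which by itself favours a larger change in pups than in adults. For Sult1e1 the change was 5.13 ± 0.35 in pups and -0.28 ± 0.35 in adults (difference 5.41 ± 0.50, adjusted p = 1.13e-07), and for H19 it was -3.74 ± 0.23 and 0.23 ± 0.23 (difference -3.97 ± 0.32, adjusted p = 9.90e-09). Adult controls stood at 14.35 ± 0.08 for Sult1e1, 14.84 ± 0.05 for Rup2, 14.33 ± 0.09 for Cyp2c7 and 14.25 ± 0.10 for Apoa2. For Cyp2c13 and Cyp2c11 they stood at 14.09 ± 0.06 and 13.94 ± 0.13. All of these were near the top of the scale, where an increase might not be measured. Adult controls stood at 6.75 ± 0.16 for H19, 6.57 ± 0.38 for Igfbp2 and 4.95 ± 0.30 for Abcg8, near or below the PBDE pups. Levels of pups and adults come from different batches, so age and batch cannot be told apart in them.

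**Figure D4:**
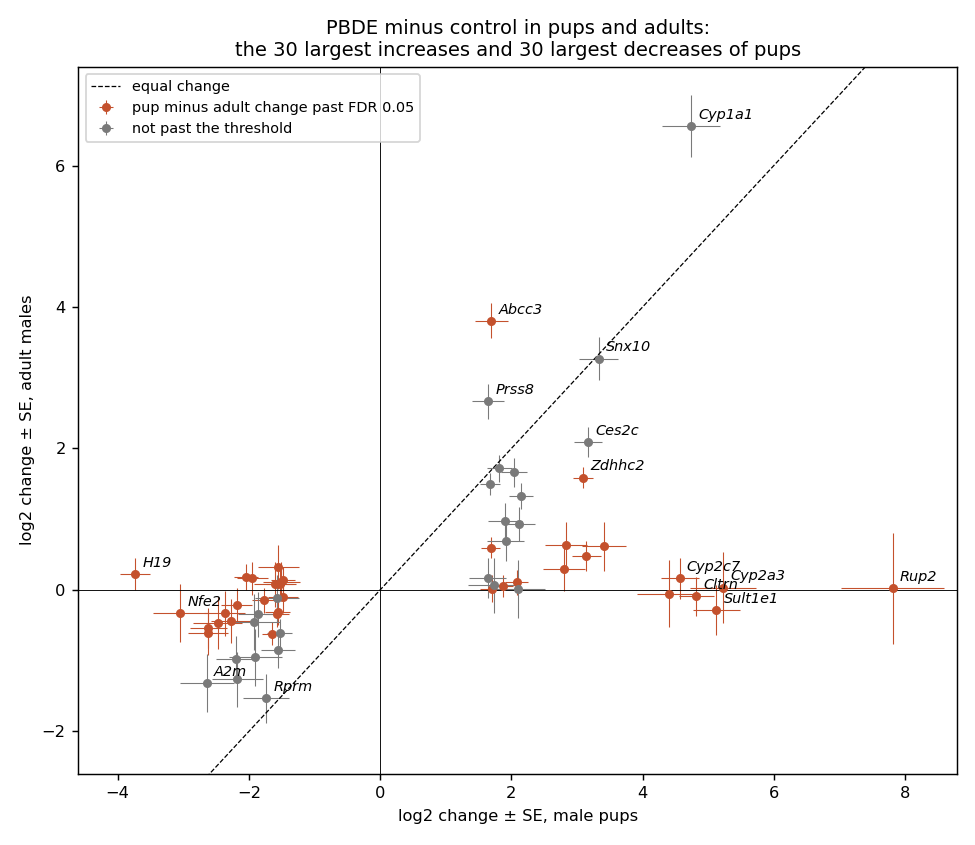
Log2 change (PBDE minus control) in male pups (x axis) and adult males (y axis), each with its SE and n = 5 per group, for the 30 largest increases and 30 largest decreases of pups. Points on the dashed line changed equally at both ages. Rup2, Cyp2a3, Sult1e1 and Cltrn lie far right near 0 in adults, H19 far left near 0, and Cyp1a1, Abcc3 and Prss8 lie above the line.

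Other genes had like changes at both ages or larger ones in adults. Snx10 had 3.33 ± 0.30 in pups and 3.27 ± 0.30 in adults, and Grin2c had 1.82 ± 0.19 and 1.72 ± 0.19. Abcc3 had 1.69 ± 0.25 in pups and 3.81 ± 0.25 in adults, a difference that passed (adjusted p = 0.0012), with controls at 8.96 ± 0.35 in pups and 5.22 ± 0.44 in adults. Cyp1a1 had 4.74 ± 0.44 and 6.56 ± 0.44, and that difference did not pass (adjusted p = 0.136). Cyp2a3 and Cltrn were low in adult controls (4.38 ± 0.12 and 3.68 ± 0.15) as in pup controls, and their adult changes were 0.03 ± 0.50 and -0.09 ± 0.27. Neither passed in adults, and both differences between the ages did (adjusted p = 9.56e-05 and 6.19e-09). In adults 13 of the 30 increases were called higher and 2 of the 30 decreases lower, at a rate of 0.05 that called 3.9% of all genes (1.86% higher and 2.04% lower). Of the 1064 genes called in pups, 164 were called in the same direction in adults and 4 in the opposite one. The 4 were Foxn2 (-0.57 ± 0.11 in pups, 0.44 ± 0.11 in adults), Stambpl1 (-0.63 ± 0.12, 0.53 ± 0.12), Nr1h4, the bile acid receptor FXR (-0.39 ± 0.10, 0.36 ± 0.10), whose pup groups overlapped, and Sat1, which starts polyamine breakdown (1.01 ± 0.13, -0.50 ± 0.13). The call of Nr1h4 in pups was lost when control pup 2, 3, 4 or 5 or PBDE pup 2, 3, 4 or 5 was left out. In all 4 the difference between the ages passed, with Sat1 at adjusted p = 1.86e-05.

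Female pups had the same 2 doses, but their control and PBDE arrays lay in different batches, so dose and batch cannot be told apart there and no comparison was made. As values, the female changes of Cyp1a1, Cltrn and Snx10 were 5.31, 4.94 and 3.45, and those of Cyp2c13 and Fabp5 were 0.72 and 0.13. All 30 of the largest increases in male pups had a female change above 0. Of the 30 largest decreases, 29 had a female change below 0, and Fabp5 was the exception. These genes were chosen for their size in males, and the share of all genes with the same sign in both sexes is not given. With dose and batch confounded in females, these counts are no replication of the male changes.

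Where a called gene had several probe sets, the others gave a check on the reading. Of the 1064 called genes, 384 had more than 1 probe set naming them alone. In 113 of these a further probe set was called in the same direction, in 271 no further one was called, and in 0 a further one was called in the opposite direction. Among the 271 are genes such as Gatm, Prodh and Keap1, for which no further probe set changed in the same direction. The remaining 680 rest on 1 probe set. At the level of probe sets, 897 of 31042 were higher (2.89%) and 757 lower (2.44%), and 310 of these 1654 name no gene or several and are not described here.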

How the data were processed

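Liver RNA of 30 rats was labelled by a 2-cycle 3' protocol and hybridised to Affymetrix rat expression arrays. The values used are log2 expression per probe set, deposited by the authors and made with RMA per the submitters' processing notes. RMA corrects background, quantile-normalizes the arrays run together and summarises probes, so it can shrink large changes and hide a shift shared by all genes. Whether all 30 arrays were normalized together is not given in the sources used here, which bears on levels set across ages.

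Of 31099 probe sets, 57 controls were left out. Of the 31042 tested, 20826 named 1 gene in the platform annotation, 436 several and 9780 none. A gene was read from its probe set of highest mean. limma 3.58.1 in R 4.3.3 fitted 1 mean per group over all 30 arrays, with Benjamini-Hochberg adjustment over all probe sets, at 0.01 in pups and 0.05 for adults and ages. SEs are limma's. Array quality was compared by exact permutation tests, and the fit was checked on simulated data.

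The members and lists were chosen with earlier results of these data known. Named by rule were the 30 largest increases and decreases called without overlap, index genes and the largest changes of each list. Not every gene that met these rules is described in the text. Further members, such as Insig2, Keap1 and Foxn2, were named after their values were seen. Alternatives changed the groups fitted, scaling, filter, variance model, covariate, weights, probe sets and arrays. The number of arrays limits precision.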

Additional observations from a re-analysis of the deposited data

Results flagged for a closer look

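The change in male pups minus that in adult males passed the false discovery rate of 0.05 in limma for 64 of 140 genes named here. Over all 14217 genes it passed for 352 (2.48%). Many of the 140 were named for the size of their change in pups, which by itself favours such a difference. Adult controls of Rup2, Sult1e1, Cyp2c7, Cyp2c13, Cyp2c11 and Apoa2 stood near the top of the scale, where an increase might not be measured. In 30 genes with a positive change in pups the difference was positive too. It was 7.79 for Rup2, 5.41 for Sult1e1, 5.19 for Cyp2a3, 4.91 for Cltrn, 4.45 for Cyp2c13, 4.40 for Cyp2c7 and 2.80 for Cxcl9. Smaller values were 2.66 for Ttc39a, 2.50 for Cyp2c11, 2.20 for Lpl, 1.97 for Sult1b1, 1.81 for Apoa2, 1.69 for Grk5 and 1.51 for Sat1. There followed 1.50 for Gstm2, 1.50 for Zdhhc2, 1.27 for Osgin1, 1.24 for Pdk4, 1.12 for Ccnb1, 1.12 for Cdca3 and 1.09 for Abcc2. The next were 1.08 for Pigr, 1.07 for Insig2, 0.99 for Xbp1, 0.96 for Slc2a1, 0.70 for Gsta4, 0.66 for Gstt3, 0.64 for Psme4, 0.50 for Zhx2 and 0.46 for Pros1.

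In 33 genes with a negative change in pups the difference was negative. The values were -3.97 for H19, -2.72 for Nfe2, -2.23 for Qsox1, -2.11 for G0s2, -2.08 for Cyp17a1, -2.04 for Igfbp2 and -2.02 for Fgf21. Smaller values were -2.01 for Abcg8, -1.98 for Qpct, -1.88 for Cyp8b1, -1.83 for Ppp2r2b, -1.68 for Angptl8, -1.63 for Ifrd1 and -1.62 for Fabp5. There followed -1.62 for Rasd1, -1.61 for Nupr1, -1.43 for Lss, -1.39 for Hsd17b7, -1.25 for Lcmt1, -1.23 for Fads2 and -1.16 for Stambpl1. The next were -1.03 for Adam11, -1.01 for Foxn2, -0.97 for Fkbp5, -0.77 for Scap, -0.75 for Nr1h4, -0.74 for Agxt and -0.74 for Cars1. The last were -0.64 for Fcgr2b, -0.62 for Gatm, -0.54 for Nr1i2, -0.52 for Hsd17b13 and -0.50 for Slc27a5. The 1 gene whose change in adults was larger in the same direction was Abcc3, with a difference of -2.11. Age and array batch cannot be told apart in the levels, but both doses of an age shared a batch.

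In 20 of the 280 groups of 5 arrays behind the named genes (7.14%), 1 array stood apart from the other 4 by Dixon's test. The groups of Ccnd1, Sult1c2, Tiparp, Ahrr, Aldh3a1, Cyp2b3, Cyp2b12, Cyp2b21, Cyp3a2, Cyp3a18 and Slco1a4 were not among the 280. Chance alone marks about 1 group in 20, here 14. Control pup 3 was the lowest of its group at 9.66 for Por, 11.61 for Fads2, 8.98 for Klf10 and 8.71 for Stambpl1. Control pup 3 was the highest of its group at 6.45 for Cyp2c13. Control pup 4 was the lowest of its group at 8.38 for Gatm, 7.97 for Tapbp and 10.67 for Pigr. Control pup 4 was the highest of its group at 7.02 for Cyp2a3 and 4.34 for Cltrn. PBDE pup 1 was the highest of its group at 13.62 for Gstt3, 13.73 for Aldh1a1 and 13.77 for Pgrmc1. PBDE pup 2 was the lowest of its group at 11.01 for Nfe2l2 and 9.56 for Sult1e1. PBDE pup 3 was the lowest of its group at 8.47 for Hal and 12.29 for Pigr. PBDE pup 3 was the highest of its group at 9.54 for Snx10. PBDE pup 4 was the highest of its group at 13.68 for Sult1b1. PBDE pup 5 was the lowest of its group at 7.29 for Ahr.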

How the results depend on the processing

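The counts of called genes kept within 1.5 times the reported ones under every alternative run, with 443 to 698 genes higher and 316 to 565 lower, except the comparison of ages, which called between 230 (without control pup 5) and 408 genes when 1 array of the 4 male groups was left out. Fitting the 2 compared groups alone called 773 genes, of which 678 were among the 1064, and leaving out 1 pup called 779 to 950. With the 3' minus 5' difference of Gapdh as a covariate 1099 genes were called, and 871 of the 1064 were kept. That difference between the groups ran from 0.27 to 0.64 for Gapdh and from 0.15 to 0.57 for Actb when 1 pup was left out. With the replicate number as a block, limma called 1036 genes and kept 981 of the 1064, and the age comparison called 336. The numbers did not pair the pups: same-numbered pups correlated between -0.24 and 0.06 in their deviations from the group means, and in 0 of 5 pairs was this above 0.1.

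Over the genes named here, 2896 of 2929 pairs of gene and alternative kept the direction and the side of the threshold. Ccnd1, Sult1c2, Tiparp, Ahrr, Aldh3a1, Cyp2b3, Cyp2b12, Cyp2b21, Cyp3a2, Cyp3a18 and Slco1a4 were not among those pairs. The 4 that turned the direction belonged to genes that did not pass. Leaving out 1 pup moved Igf2 between -0.13 and 0.067, with 0.067, 0.010 and 0.0027 without control pup 1, PBDE pup 4 and PBDE pup 5, and moved Afp between -0.66 and 0.037. Nr1h4 lost its call in 12 of 21 alternatives, Keap1 as the mean of its probe sets, and Pigr and St6galnac2 with the 2 groups fitted alone. The cause of these changes was not tested. With 5 arrays per group, values near the floor or ceiling of the scale bound what could be measured.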

Other observations

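Enzymes that mark the zones of the liver lobule were lower in 6 of 28 cases and higher in 3 (32.1%), with a median change of -0.15, and the 6 became 3 without control pup 3 or PBDE pup 3. Gldc, of the glycine cleavage system, read 9.55, 9.80, 9.91, 9.53 and 9.40 in controls and 8.56, 8.89, 8.66, 8.32 and 8.46 in PBDE pups (change -1.06 ± 0.18, adjusted p = 1.76e-04 in limma, or -0.61 as the mean of its probe sets). Hal, which starts histidine breakdown, read 9.70, 10.02, 10.50, 9.60 and 9.85 in controls and 9.14, 9.16, 8.47, 8.98 and 8.97 in PBDE pups (change -0.99 ± 0.18). Hsd17b13, a lipid droplet enzyme, fell from 12.01, 11.91, 11.88, 12.13 and 12.09 to 11.20, 11.40, 11.33, 11.18 and 11.14 (change -0.75 ± 0.09). Pigr, the receptor that carries immunoglobulin A into bile, rose from 11.67, 11.96, 12.07, 10.67 and 11.99 to 12.97, 12.82, 12.29, 13.02 and 12.89 (change 1.13 ± 0.18), but did not pass when the 2 groups were fitted alone (adjusted p = 0.0103). In these 4 genes no PBDE pup lay among the controls.

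Steroid-metabolising enzymes were higher in 4 of 26 cases and lower in 2 (23.1%), with a median of 0.18. Besides Sult1e1 and Cyp17a1, Srd5a3, of the steroid reductase family, had a change of 0.57 ± 0.10 and Pgrmc1, a haem-binding membrane protein that interacts with P450s, one of 0.33 ± 0.06, both higher. Of 37 complement and coagulation factors, 2 were higher and 1 lower (8.11%, against 7.48% of all genes), with a median of -0.09. Pros1, the anticoagulant protein S, was the larger increase (change 0.70 ± 0.08, with controls at 11.04, 11.03, 11.10, 10.88 and 11.13 and PBDE pups at 11.62, 11.65, 11.78, 11.77 and 11.82). The other higher member was lost without any 1 pup but control pup 3 or PBDE pup 3, and the lower one without control pup 1, 2, 4 or 5 or PBDE pup 3, 4 or 5.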
